A study of Mus musculus with 18 samples.

Results

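Cdk11b, the kinases Cdk7, Cdk8, Cdk9, Cdk12 and Cdk13, and the cyclins Ccnl1, Ccnl2, Ccnk and Ccnt1 are genes whose products act together on RNA polymerase II and on splicing. These 10 genes were taken by symbol from the 22298 genes of the mRNA table, and each symbol matched 1 row. All 10 passed the filter on low counts. Cdk11b was selected on its counts in these same libraries, which were about doubled in the knock-in testis, so its genotype difference is given here as a description and is not tested. The other 9 genes were chosen as its cyclins and relatives. The data cover whole testis of adult C57BL/6 mice, with 3 libraries labelled wild type and 3 labelled with a knock-in allele of Taf7l (spelled konckin in the labels). Taf7l is the X-linked germ-cell relative of the TFIID subunit Taf7. The labels do not say what the allele changes, and they name no promoter or Cre that would limit it to some cells. Pachytene spermatocyte and round spermatid samples, 12 of the 18 in the labels, were not analysed here. Whether each library stands for its own animal is not stated in the labels, and the p-values below rest on library-to-library spread that may be technical in part.

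Cyclin-dependent kinases of the transcriptional branch each work with a cyclin partner and phosphorylate the C-terminal repeat domain of RNA polymerase II or factors around it. Cdk7, with cyclin H and Mat1, belongs to the initiation factor TFIIH, and Cdk8, with cyclin C, to the kinase module of Mediator. Cdk9 with cyclin T1 forms P-TEFb, which releases paused polymerase, Cdk12 and Cdk13 with cyclin K act during elongation, and Cdk11 with cyclin L1 or L2 acts in splicing. In testis, transcription is high in spermatocytes and round spermatids and stops as spermatid chromatin condenses.

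The mRNA table held 17431309 to 21446420 counts per library. Taf7l was counted 472 to 581 times per library, at a log2 fold change of -0.11 (95% interval -0.29 to 0.07). Gene-level counts do not show what the allele changes and cannot test the genotype labels. All 57 listed markers of testis cell types were above 0 in at least 1 library. CPM here is the count relative to the library total, scaled by TMM. The 6 elongating spermatid markers summed to 8628 to 10431 CPM for wild type and 8703 to 10589 for knock-in, which overlapped. Of the 57 markers edgeR called 1, where 0.982% of all genes tested were called, so 1 call is near that share for so few genes. It was the protamine gene Prm2 of the elongating spermatid list. Its estimate on the log2 scale was 0.53 ± 0.09 (SE), at an adjusted p of 0.0289 by edgeR. The other chromatin-packaging genes of the list were not called, with Tnp1 at 0.53 ± 0.12, Tnp2 at 0.39 ± 0.12 and Prm1 at -0.31 ± 0.12. The summed level did not overlap between the genotypes for pachytene spermatocyte markers, at 2450 to 2663 CPM for wild type and 2735 to 2826 for knock-in. Nor did it overlap for peritubular myoid and smooth muscle markers, at 159 to 182 CPM for wild type and 186 to 214 for knock-in. These were 2 of 10 marker lists, and no background share was computed for such sums. None of the 8 and 5 genes in these 2 lists was called changed by edgeR (background 0.982%). Most of the pachytene sum came from Hspa2, with means of 1564 CPM for wild type and 1720 for knock-in. Of that list Sycp3, Mlh3 and Pou5f2 had log2 fold changes below 0 (-0.02, -0.06 and -0.22), and the rest lay above 0. In the smooth muscle list every log2 fold change lay above 0, from 0.08 to 0.46 with a median of 0.25. The part of the markers of these 3 cell types in the results below was not tested. In whole testis, fewer cells of a type and less RNA per cell cannot be told apart.

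Cdk11b (ENSMUSG00000029062, mm10 chromosome 4 from 155624841 to 155649935) encodes the kinase that pairs with the L-type cyclins. Its counts were 303, 340 and 262 for wild type and 614, 765 and 779 for knock-in. Relative to library total this was 16.5, 17.9 and 14.9 CPM in wild type against 33.8, 39.5 and 36.6 CPM in knock-in testis. Every knock-in library lay above every wild-type library, with a gap wider than the range within either genotype. Cdk11b was chosen for this rise, so the gap, the estimate and the rank that follow are a description. The edgeR estimate was a 2.23-fold higher level in the knock-in, a log2 fold change of 1.15 ± 0.10 (SE). By size, the change ranked 86 among 15787 genes tested. FPKM, the deposited level scaled by transcript length and library size, was 5.67, 5.26 and 4.93 for wild type and 10.38, 12.13 and 13.67 for knock-in.

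The order of the 3 knock-in libraries differed between the units: library 2 was highest in CPM and library 3 in FPKM. Count and FPKM together imply the transcript length that the authors' calculation used. For Cdk11b this implied length ran from 2657 to 3485 bases across the 6 libraries, with 2847, 3485 and 3049 for wild type and 3180, 3338 and 2657 for knock-in. The genotypes overlapped in implied length. For Ccnk, the most abundant of the 10 genes, it ran only from 3573 to 3599 bases. It varied for other genes too, as from 2172 to 2557 bases for Cdk7 and from 5587 to 6295 for Cdk12. For Ccnl2 it ran from 3065 to 3139. How the authors assigned reads to Cdk11b isoforms is not given in the sources used here.

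**Figure D1:**
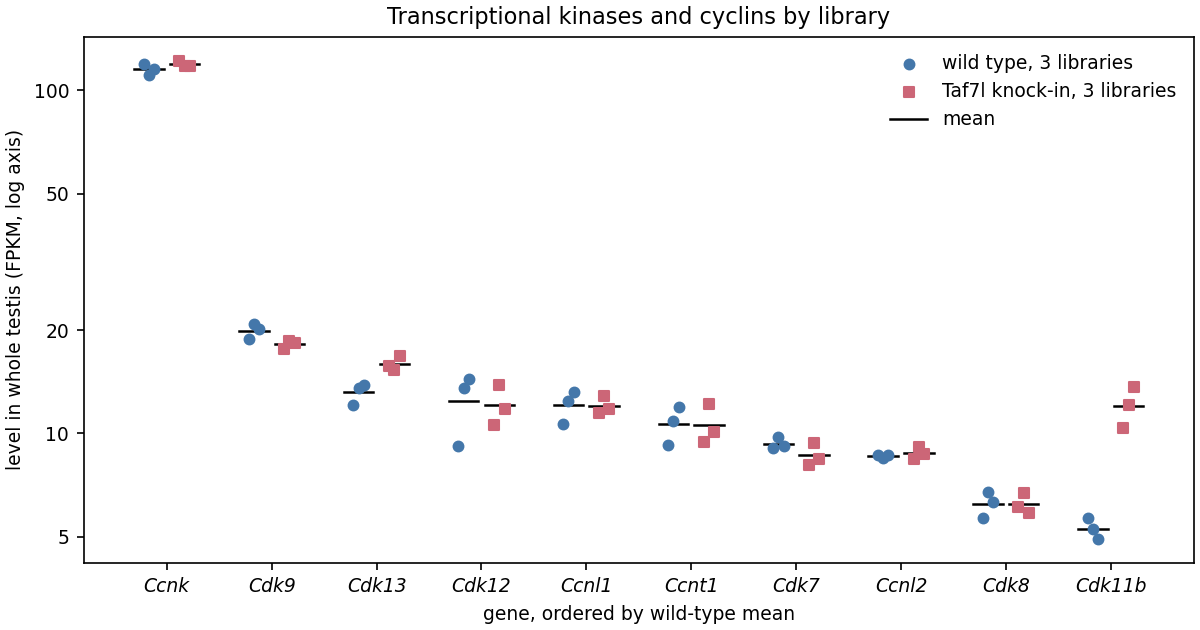
Levels in FPKM (log axis) of the 10 genes in each library, with 3 wild-type libraries as circles, 3 Taf7l knock-in libraries as squares and horizontal bars at the means. Cdk11b, chosen for its rise, has the lowest wild-type mean at 5.29 FPKM and stands at 12.1 FPKM in the knock-in. The genotypes lie close together for the other 9 genes.

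On the per-length scale of FPKM, Cdk11b was the least abundant of the 10 genes in wild type, at 5.29 ± 0.371 FPKM (mean ± SD, n = 3). Its 3 libraries, from 4.93 to 5.67 FPKM, fell just below those of Cdk8, from 5.68 to 6.74. In the knock-in Cdk11b stood at 12.1 ± 1.65 FPKM (SD, n = 3), next to Cdk12 at 12.1 and Ccnl1 at 12.1, with overlapping ranges. Ccnk was the most abundant in both genotypes, at 115 ± 4.37 FPKM for wild type and 119 ± 2.44 for knock-in. It was followed by Cdk9 at 19.9 ± 1.03 FPKM for wild type and 18.2 ± 0.521 for knock-in. The Ccnk and Cdk9 ranges overlapped neither each other nor the gene below them. In the wild type the ranges of neighbours overlapped from Cdk13 (13.2 FPKM) through Cdk12 (12.4), Ccnl1 (12.1) and Ccnt1 (10.7) to Cdk7 (9.35), so the order within that run is not resolved. Ccnl2 (8.58 FPKM) and Cdk8 (6.24) followed without overlap. Among the knock-in libraries Cdk13 (15.97 FPKM) stood apart from both neighbours, and the ranges overlapped from Cdk12 through Cdk11b and Ccnl1 to Ccnt1 (10.6). Below that run, Ccnl2 (8.75 FPKM) and Cdk7 (8.63) overlapped each other, and Cdk8 (6.22) was the lowest. The 10 genes together took 0.0746% to 0.0796% of the counts in each wild-type library and 0.0803% to 0.0820% in each knock-in library. Without Cdk11b the shares overlapped, at 0.0730% to 0.0781% and 0.0770% to 0.0779%.

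Neither L-type cyclin, the partners of Cdk11, was called changed. Ccnl1 (cyclin L1, chromosome 3 from 65945908 to 65962029) was counted 507, 566 and 587 times in wild type and 548, 606 and 609 times in knock-in testis. Scaled by library, 27.7 to 33.3 CPM in wild type enclosed the knock-in values of 28.6 to 31.3. Ccnl1 had a log2 fold change of -0.01 ± 0.09 (SE, 95% interval -0.22 to 0.19; edgeR, adjusted p = 0.975). Ccnl2 (cyclin L2, chromosome 4 from 155810219 to 155824543) was counted 509, 481 and 465 times in wild type and 484, 537 and 587 times in knock-in testis, which overlapped after scaling. Its log2 fold change was 0.04 ± 0.08 (95% interval -0.14 to 0.23; edgeR, adjusted p = 0.886). Both intervals lay below the estimate for Cdk11b, but the rise of Cdk11b chose that gene, so this is only a description.

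The level of the kinase relative to its cyclins was about doubled as well. The FPKM of Cdk11b over the sum of Ccnl1 and Ccnl2 was 0.294, 0.252 and 0.226 for wild type and 0.522, 0.551 and 0.666 for knock-in, with no overlap. Against Ccnl1 alone the ratio was 0.443 ± 0.0816 (SD, n = 3) for wild type and 1.00 ± 0.136 for knock-in. Against Ccnl2 alone it was 0.616 ± 0.0427 and 1.38 ± 0.172. These ratios contain the Cdk11b difference that chose the gene and are a description. The ratio of the cyclins to each other, Ccnl1 over Ccnl2, was 1.41 ± 0.158 for wild type and 1.38 ± 0.0304 for knock-in.

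Since Taf7l belongs to a family of core promoter factors, the sequences before the starts of Cdk11b and its L-type cyclins are shown side by side. Each is the 250 bases before the transcript start in RefSeq's GRCm38.p6 table (the assembly also called mm10), 5′ to 3′ on the gene's strand. They lie at chr4:155624604-155624853 (+) for Cdk11b, chr3:65958250-65958499 (-) for Ccnl1 and chr4:155812239-155812488 (+) for Ccnl2. The table gives 1 start per gene here, and other transcripts of these genes begin elsewhere. For Ccnl1 and Ccnl2 the window lies inside the gene bounds given above, and for Cdk11b at their edge. Capitals mark matches, on either strand, to the TATA box TATAAA, the CCAAT box CCAAT, the GC box GGGCGG and the cAMP response half-site TGACG.
Cdk11b: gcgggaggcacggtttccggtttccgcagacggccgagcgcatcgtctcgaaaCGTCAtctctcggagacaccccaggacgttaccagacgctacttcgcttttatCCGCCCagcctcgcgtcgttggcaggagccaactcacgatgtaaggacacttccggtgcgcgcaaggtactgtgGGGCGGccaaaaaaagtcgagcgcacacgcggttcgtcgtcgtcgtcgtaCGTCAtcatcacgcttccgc
Ccnl1: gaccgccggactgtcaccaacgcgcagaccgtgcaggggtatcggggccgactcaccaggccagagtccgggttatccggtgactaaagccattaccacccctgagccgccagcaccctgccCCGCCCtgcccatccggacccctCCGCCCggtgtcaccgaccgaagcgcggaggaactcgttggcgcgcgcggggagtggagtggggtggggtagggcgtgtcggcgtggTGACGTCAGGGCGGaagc
Ccnl2: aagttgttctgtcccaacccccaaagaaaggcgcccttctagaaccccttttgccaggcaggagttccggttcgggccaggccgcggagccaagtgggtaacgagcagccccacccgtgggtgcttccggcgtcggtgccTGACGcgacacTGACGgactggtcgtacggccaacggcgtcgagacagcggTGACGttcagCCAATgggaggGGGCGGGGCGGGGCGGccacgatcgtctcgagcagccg

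The Cdk11b window held 2 GC boxes and 2 half-sites and neither of the other motifs. That of Ccnl1 held 3 GC boxes and 2 half-sites, the half-sites overlapping each other in a palindrome. The Ccnl2 window held 3 overlapping GC boxes, 3 half-sites and 1 CCAAT box. All 10 genes matched the promoter table. Of their windows 0 held TATAAA, against 12.4% of all 32851 windows of the same length. The GC box was in 9 of 10, against 32.7% of all windows, the half-site in 6 against 17.8% and the CCAAT box in 3 against 33.8%. A match is a description of letters in these windows and says nothing of a factor bound there, and the windows differ in base composition, which bears on such counts (61.2% G and C for Cdk11b, 70.4% for Ccnl1, 66.8% for Ccnl2 and a median of 52.4% over all windows).

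Among the other 9 genes, 0 were called changed (edgeR, adjusted p under 0.05), where 0.982% of the 15787 genes tested were called. DESeq2 also called 0 of the 9, against 4.11% of the genes to which it gave an adjusted p. At an unadjusted p under 0.05 there were 2 of 9, Cdk13 and Cdk7, against 12.9% of genes tested. The 9 log2 fold changes ran from -0.20 to 0.22 with a median of -0.01, 4 above 0 and 5 below, and the median over all genes tested was 0.0027. With 9 genes, 0 calls is close to what the background share gives. The authors' deposited table lists these 9 genes at adjusted p from 0.255 to 0.976 and log2 ratios from -0.13 to 0.28.

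**Figure D2:**
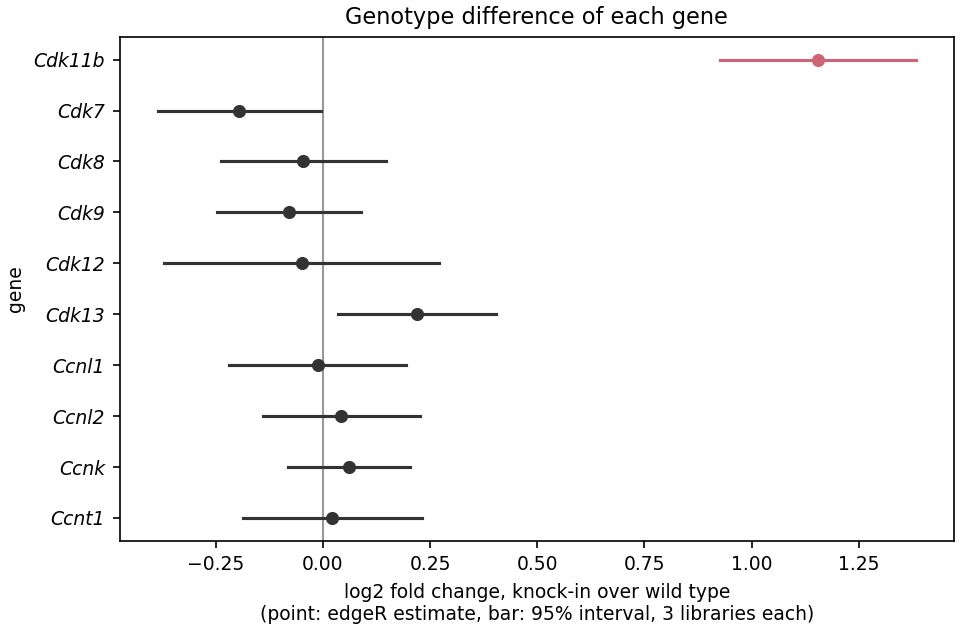
Log2 fold change of each gene, knock-in over wild type, as the edgeR estimate (point) with its 95% interval (bar), from 3 libraries per genotype. Cdk11b, chosen for its rise, stands at 1.15 as a description, and the other 9 estimates lie between -0.20 and 0.22.

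Cdk7, the kinase of TFIIH and of the CDK-activating complex (chromosome 13 from 100697024 to 100730942), had the lowest of these estimates. It was counted 421, 423 and 411 times in wild type and 357, 385 and 434 times in knock-in testis. After scaling, 22.3 to 23.3 CPM in wild type lay above 19.6 to 20.4 CPM in knock-in testis. The CPM values did not overlap, which held for 18.5% of genes tested in one direction or the other. Its log2 fold change was -0.20 ± 0.09 (SE; edgeR, adjusted p = 0.376). In FPKM the genotypes overlapped, at 9.06 to 9.76 for wild type and 8.09 to 9.38 for knock-in. Ccnh, the cyclin H partner of Cdk7, had a log2 fold change of -0.21 ± 0.08 (adjusted p = 0.325), with 24.8 to 26.3 CPM for wild type and 21.3 to 22.3 for knock-in. Mnat1, which encodes the assembly factor Mat1, had 0.02 ± 0.11. None of the 3 genes of this complex passed the test.

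Cdk9, the kinase of P-TEFb (chromosome 2 from 32705782 to 32712784), had 702, 776 and 670 counts in wild type and 644, 728 and 809 for knock-in. Its values were 38.1 to 40.9 CPM for wild type and 35.4 to 38.1 for knock-in, where the edges differ only in the next digits. This gave a log2 fold change of -0.08 ± 0.08 (95% interval -0.25 to 0.09; edgeR, adjusted p = 0.738). Its cyclin Ccnt1 (chromosome 15 from 98538690 to 98567736) had 821, 903 and 959 counts in wild type and 859, 1049 and 1015 for knock-in, with overlapping CPM. The log2 fold change of Ccnt1 was 0.02 ± 0.09 (interval -0.19 to 0.23; adjusted p = 0.952). The FPKM ratio of Cdk9 to Ccnt1 was 1.88 ± 0.175 (SD, n = 3) for wild type and 1.73 ± 0.182 for knock-in, a difference within that spread.

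Cdk13 (chromosome 13 from 17711676 to 17805212), an elongation kinase, had the highest estimate after Cdk11b. It was counted 1272, 1462 and 1383 times in wild type and 1636, 1513 and 1996 times in knock-in testis. Knock-in library 2, at 78.2 CPM, fell inside the wild-type range of 69.4 to 78.6 CPM, and the other knock-in libraries were at 89.9 and 93.9. Cdk13 had a log2 fold change of 0.22 ± 0.08 (SE, 95% interval 0.03 to 0.40; edgeR, adjusted p = 0.303), which did not pass. In FPKM the genotypes did not overlap, at 12.12 to 13.81 for wild type and 15.31 to 16.86 for knock-in. The share of all genes that do not overlap in FPKM was not computed. Cdk9 did not overlap in FPKM either, in the other direction, at 18.8 to 20.83 for wild type and 17.59 to 18.6 for knock-in.

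Its relative Cdk12 (chromosome 11 from 98202433 to 98281101) had 1010, 1582 and 1505 counts in wild type and 1216, 1460 and 1577 for knock-in. Wild-type library 1 was the lowest of the 6 at 55.1 CPM, the other wild-type libraries were the highest at 83.5 and 85.5, and the knock-in libraries lay between at 66.9 to 75.5. For Cdk12 the estimate was -0.05 ± 0.14 (SE; edgeR, adjusted p = 0.930), the widest error of the 10 genes. Without wild-type library 1 it was -0.23 (adjusted p = 0.302), and without wild-type library 3 it was 0.06, so its sign rests on single libraries. The same wild-type library 1 was also the lowest of the 6 for Cdk13, Ccnl1 and Ccnt1. It was not low throughout, being the highest of the 6 for Ccnl2 (27.8 CPM) and the highest wild-type library for Ccnk (439 CPM).

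Ccnk, the cyclin that Cdk12 and Cdk13 share (chromosome 12 from 108179308 to 108203359), had 8051, 7333 and 7232 counts in wild type and 8161, 7995 and 9104 for knock-in. This gave 412 ± 26.4 CPM (SD, n = 3) for wild type and 430.0 ± 17.8 for knock-in, with overlapping libraries. The log2 fold change was 0.06 ± 0.06 (95% interval -0.08 to 0.20; edgeR, adjusted p = 0.768), the narrowest error of the 10 genes. Per kilobase, Ccnk exceeded its kinases together: the FPKM of Cdk12 plus Cdk13 over that of Ccnk was 0.223 ± 0.0384 for wild type and 0.236 ± 0.0170 for knock-in. Cdk8, the Mediator kinase (chromosome 5 from 146230795 to 146302874), had 413, 459 and 403 counts in wild type and 412, 448 and 461 for knock-in. Its CPM overlapped, and its log2 fold change was -0.05 ± 0.09 (interval -0.24 to 0.15; adjusted p = 0.884).

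The pathway around these kinases was described through 8 lists holding 65 genes, all of them tested. Of the 65 genes, 0 were called by edgeR (background 0.982%), 16 had an unadjusted p under 0.05 (background 12.9%), and 22 did not overlap between the genotypes (background 18.5%). DESeq2 called 1 of the 62 to which it gave an adjusted p, below its share of 4.11% over all genes. That gene, the elongation factor gene Supt5, is singled out here for that reason. Supt5 ran from 88.5 to 95.8 CPM for wild type and from 104 to 118 for knock-in. Its log2 fold change was 0.28 ± 0.07 (SE; edgeR, adjusted p = 0.0921) and 0.27 by DESeq2 (adjusted p = 0.019). The 65 estimates ran from -0.30 to 0.50. That they lie below the estimate of Cdk11b follows from the choice of that gene, which ranked 86 by size among 15787 genes tested.

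The list of partner cyclins and assembly factors also holds the related kinases Cdk10 and Cdk19, and showed a median of -0.07 (log2 fold change) over 7 genes, 2 above 0. Beside Ccnh and Mnat1, its cyclins were Ccnc, the partner of Cdk8, at 0.09 ± 0.12 (SE), Ccnt2, a further partner of Cdk9, at -0.07 ± 0.11, and Ccnq, the partner of Cdk10, at -0.0068 ± 0.14. The most abundant genes of the list were the kinases, Cdk10 (-0.10 ± 0.08 SE) and Cdk19, the paralog of Cdk8 (-0.19 ± 0.06; edgeR, adjusted p = 0.233), whose knock-in libraries all lay below the wild type. Genes of Cdk11 interactors and substrates had a median of 0.0038 over 5 genes, with the splicing factor gene Sf3b1 at -0.07 ± 0.05 and the translation factor gene Eif3f at 0.05 ± 0.06. Of these 5 genes, 0 had an unadjusted p under 0.05 (edgeR, background 12.9%), which is near that share for so few genes. The Mediator kinase module had a median of -0.0087 over 6 genes (Med13 -0.06 ± 0.075, with Cdk19 again) and the TFIIH core of 0.04 over 7 (the p62 subunit gene Gtf2h1 0.09 ± 0.06, the helicase gene Ercc3 0.10 ± 0.06).

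The list of P-TEFb regulators, the super elongation complex and pause factors had a median of 0.09 over 20 genes, 14 above 0 and 6 below. Nelfe, of the pausing factor NELF, had 0.17 ± 0.07 (SE; edgeR, adjusted p = 0.318) and Larp7, of the complex that sequesters P-TEFb, 0.0092 ± 0.06. Phosphatases of the polymerase's C-terminal domain and its largest subunit had a median of 0.09 over 7 genes (Polr2a 0.09 ± 0.07, Rpap2 0.0094 ± 0.07). DNA repair genes known to depend on Cdk12 had a median of -0.15 over 4 genes, with the checkpoint kinase gene Atr at -0.18 ± 0.07 (adjusted p = 0.317) and Fancd2 at -0.15 ± 0.06 (adjusted p = 0.329). Other kinases of the CDK family had a median of -0.08 over 11 genes, 4 above 0 and 7 below, and ran from -0.20 to 0.50. The 2 most abundant were Cdk16 at 0.23 ± 0.09 and the cell-cycle kinase gene Cdk2 at -0.17 ± 0.06.

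**Figure D3:**
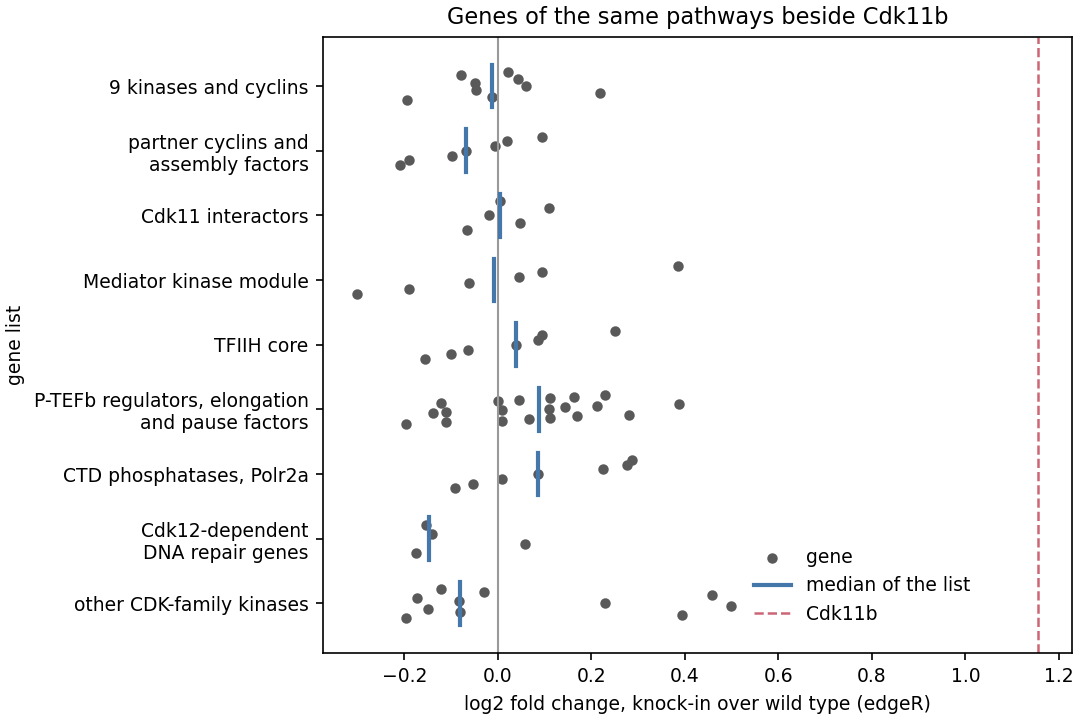
Log2 fold changes (edgeR, knock-in over wild type, 3 libraries each) of the 9 other kinases and cyclins and of the genes of 8 lists, 1 point per gene, with the median of each list as a vertical bar and Cdk11b as a dashed line. List medians lie between -0.15 and 0.09, and the dashed line is at 1.15, for a gene chosen for its rise.

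Among the genes around Cdk11b, edgeR called none and DESeq2 called 1. RefSeq places 0 other genes within its bounds. The nearest tested gene at lower coordinates, Slc35e2, lies 1501 bases away and was counted 475, 580 and 411 times in wild type and 437, 540 and 463 times in knock-in testis. Its log2 fold change was -0.12 ± 0.13 (SE; edgeR, adjusted p = 0.774). Mmp23, at higher coordinates, lies 720 bases away and had too few counts to be tested. The nearest tested gene on that side, Mib2, which encodes a ubiquitin ligase, lies 4533 bases away. It was counted 959, 897 and 982 times in wild type and 915, 890 and 1151 times in knock-in testis (log2 -0.05 ± 0.09; adjusted p = 0.887).

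Within 500 kb there were 33 tested neighbours, Ccnl2 at 160284 bases among them. Their log2 fold changes ran from -0.38 to 0.44 with a median of -0.02, 16 above 0 and 17 below. None was called by edgeR (background 0.982%), 5 had an unadjusted p under 0.05 (background 12.9%), and 8 did not overlap between the genotypes (background 18.5%). DESeq2 called 1 of the 25 to which it gave an adjusted p, near its background of 4.11%. This was 9430015G10Rik (log2 -0.39, adjusted p = 0.0323), which edgeR gave at -0.38 ± 0.09 (adjusted p = 0.0803).

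**Figure D4:**
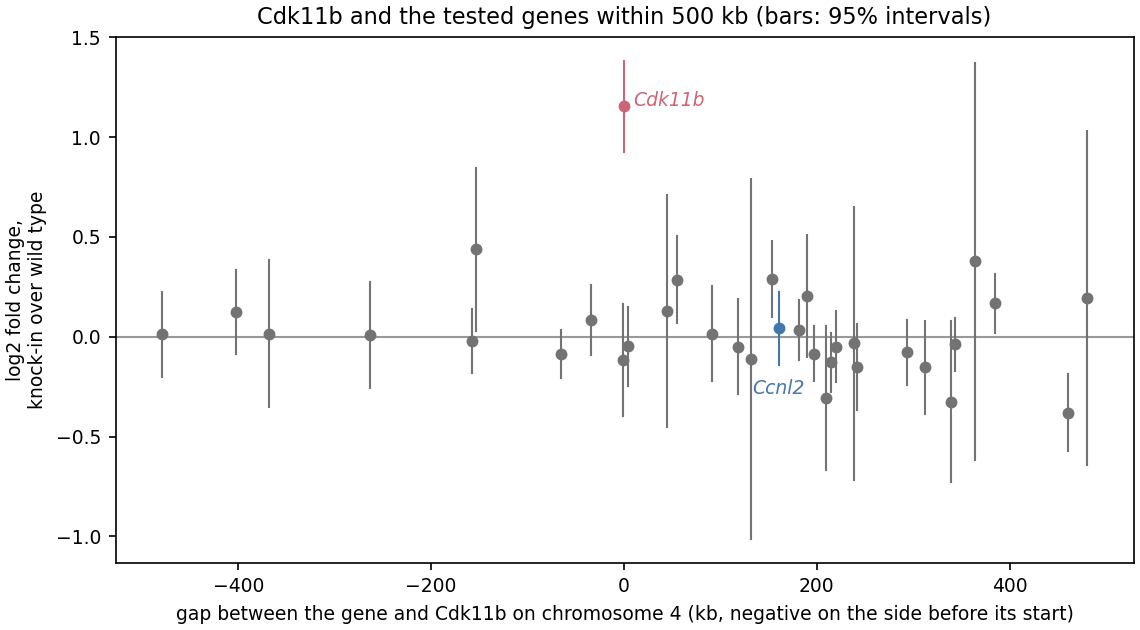
Log2 fold change (edgeR, bars are 95% intervals, 3 libraries per genotype) of Cdk11b and the 33 tested genes within 500 kb, against the gap in kb between each gene and Cdk11b. Cdk11b, chosen for its rise, is at 1.15, with Ccnl2 at 0.04 and the other neighbours between -0.38 and 0.44.

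The 5 tested genes whose CPM followed that of Cdk11b most closely over the 6 libraries had Pearson correlations from 0.993 to 0.994 on the log2 scale. They were Vps72 of histone exchange complexes, the RNA-binding Serbp1, the histone gene H4c1, the sarcoglycan gene Sgcb and Bola2 of iron-sulfur assembly. H4c1 is one of many near-identical histone genes, so its counts are uncertain. The fitted knock-in level was 1.22-fold that of wild type for Serbp1, 1.38-fold for Vps72 and 3.49-fold for Sgcb. Since likeness to Cdk11b chose these genes, their difference between the genotypes follows from the choice. The 6 points fall into 2 genotypes and share library and depth, so these values only describe likeness. Of the other kinases and cyclins, Cdk13 had the highest correlation with Cdk11b, 0.68, and Cdk7 the lowest, -0.97.

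A further readout of the same loci came from the noncoding table, whose values did not enter the choice of genes. It held 11 transcripts under the symbols of 5 of the genes, with 1384224 to 1647421 counts per library over the whole table. Cdk11b had 5 of them, with summed counts of 6, 0 and 10 for wild type and 7, 3 and 19 for knock-in. No Cdk11b transcript passed the filter, and the most abundant, ENSMUST00000155100, had 3, 0 and 2 counts in wild type and 3, 3 and 9 for knock-in. ENSMUST00000149498 had 1 count in wild-type library 1 and 10 in knock-in library 3, and ENSMUST00000135550 had 8 in wild-type library 3 and 3 in knock-in library 1, with 0 elsewhere. ENSMUST00000143196 had 2 counts and ENSMUST00000142513 had 1 count in all. As no noncoding transcript of Cdk11b was tested, a change like that of the gene cannot be judged at this depth. Of the other transcripts, 4 were tested and 0 were called (edgeR, background 0.0968%; 0 at an unadjusted p under 0.05, background 8.97%; 0 by DESeq2, background 0.941%).

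The most abundant noncoding transcript was ENSMUST00000147441 of Cdk12, with 172, 128 and 114 counts in wild type and 102, 129 and 154 for knock-in. The genotypes overlapped, and the log2 fold change was -0.19 ± 0.18 (SE; edgeR, adjusted p = 0.815). ENSMUST00000198861 of Cdk8 had 49, 53 and 43 counts in wild type and 37, 46 and 45 for knock-in (log2 -0.26 ± 0.21, adjusted p = 0.777). ENSMUST00000225056 of Cdk7 had 16, 19 and 9 against 14, 23 and 9 counts, and ENSMUST00000163180 of Ccnt1 was at 0 in all 6 libraries. How reads shared between a noncoding transcript and its coding gene were counted is not given, so these values are uncertain.

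Circular RNAs, closed by back-splicing, were listed for 4 of the genes, with 15 of the 7391 circles. No listed circle had Cdk11b as its host gene. Cdk13 had 6 circles and 302 counts in all, Ccnl2 had 1 circle and 42 counts, Cdk12 had 7 and 36 counts, and Cdk8 had 1 and 8 counts. The main Cdk13 circle spans chromosome 13 from 17750257 to 17772957 in mm10 with a spliced length of 1386 bases. It was counted 37, 26 and 23 times in wild type and 27, 35 and 48 times in knock-in testis, which overlapped (log2 0.18 ± 0.26 SE; edgeR, adjusted p = 0.979). The Ccnl2 circle, chromosome 4 from 155820329 to 155823693 and 900 bases spliced, had 16, 6 and 6 counts in wild type and 8, 2 and 4 for knock-in. Its estimate was -1.10 on the log2 scale, and the 95% interval of -2.28 to 0.07 spans 0 (edgeR, adjusted p = 0.979).

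The most abundant Cdk12 circle, on chromosome 11 from 98210361 to 98224631, had 1 count in each wild-type library and 3, 2 and 3 counts in the knock-in libraries. The Cdk8 circle, on chromosome 5 from 146259505 to 146271735, had 2, 2 and 0 counts in wild type and 0, 2 and 2 for knock-in. Of the 15 circles 9 were tested and 0 were called, as were 0% of all 3887 circles tested, with 0 of the 9 at an unadjusted p under 0.05 (background 4.91%) and 0 by DESeq2 (background 0%). The table held 14381 to 20127 circular counts per library. At that depth the interval of the main Cdk13 circle was -0.33 to 0.70 on the log2 scale, and that of the most abundant Cdk12 circle was -1.47 to 3.79.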

How the data were processed

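Whole-testis libraries, 3 per genotype, were taken from 3 deposited tables. Per the file headers, each holds whole-number counts made by the authors, the mRNA and noncoding tables also FPKM, and the circular RNA table RPM. The authors deposited means per genotype (FPKM, or a signal for circles), log2 ratios of these means, p-values and adjusted p-values. Total RNA went through a stranded kit, per the labels' protocols. The submitters' processing notes name mm10 as build. For the aligner, counter, annotation and strand setting the entry is: not given in the sources used here.

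The deposited counts were tested with edgeR 4.0.16 (quasi-likelihood, TMM, two-sided, limma 3.58.1, R 4.3.3), with filterByExpr at a minimum count of 10 and total of 15, or, for circles, 3 libraries above 0. P-values were adjusted by Benjamini-Hochberg over each whole table, and a feature was called at an adjusted p under 0.05. SEs and 95% intervals came from the quasi-likelihood F statistic. The fit was tested on simulated data. Depth is 17431309 to 21446420, 1384224 to 1647421 and 14381 to 20127 counts per library for the 3 tables, with a biological coefficient of variation of 11.1%, 26.4% and 43.4%.

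Genes and lists were chosen with earlier results of these data known. Named in each list were called genes and the 2 most abundant by FPKM; 500 kb bounded the neighbours and 5 genes were named for likeness (prior count 2 in log2 CPM). Supt5, 9430015G10Rik, the partner genes Ccnh, Mnat1, Ccnc, Ccnt2 and Ccnq, and the markers Tnp1, Tnp2 and Prm1 fall outside these rules and were named after their values were seen. Gene positions and promoters are RefSeq's, matched by symbol. No library repeated another. The alternatives were DESeq2 1.42.0, other scalings and filters, a replicate block, a length correction, limma on FPKM and leaving out each library.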

Additional observations from a re-analysis of the deposited data

How the results depend on the processing

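The log2 fold change of Cdk11b ran from 1.05 (limma on log2(FPKM + 1)) to 1.22 over 15 alternatives, and from 1.09 to 1.22 when 1 library was left out. With the replicate block it was 1.16, and with the length trend removed 1.15. Of the other 9 genes, 0 were called under any of the 15 alternatives, and of the noncoding transcripts and circles 0 under any of 10. DESeq2 called 1 listed pathway gene (Supt5) and 1 neighbour (9430015G10Rik) where edgeR called 0, at a DESeq2 share of 4.11% over all genes. Estimates near 0 changed sign: Ccnl1 was 0.0005 and 0.0002, and Ccnt1 -0.0142 and -0.013, by limma on log2(FPKM + 0.1) and log2(FPKM + 1). Without 1 library, Ccnl1 ran from -0.0776 to 0.0622, Ccnt1 from -0.0439 to 0.106 and Cdk12 from -0.23 to 0.059. The cause was not tested. Of all mRNA genes tested, 155 were called, against 451 by DESeq2, 251 and 263 by limma on FPKM, 84 with the length trend removed, 178 with the replicate block and 11 to 125 without 1 library. The replicate numbers were not taken to pair libraries, as the labels do not say that they do. Deviations of same-numbered libraries correlated at 0.14, 0.08 and 0.03. Wild-type library 3 correlated best with knock-in library 2 (0.05), and the remaining differently numbered pairs ran from -0.12 to -0.02. These values do not settle whether libraries were paired. With the block 0 of the other 9 genes, the listed pathway genes and the neighbours were called. Circles and the noncoding transcripts of Cdk11b are limited by depth.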
